A study of Mus musculus with 5 samples.

Results

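Zmiz1, St3gal6 and Dcbld2 are 3 of the 21887 protein-coding genes on the assembled mouse chromosomes. They were selected on measured values of this same peak list: clusters at places 3 and 5 among all clusters of distal H3K27ac peaks, ranked by signal value times length, overlap them. Number, width and signal of the peaks are therefore given below as a description without a test. Together, the gene bodies and the 100 kb on either side of them held 77 of the 22948 peaks of the list.

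The peaks come from 4 H3K27ac libraries set against 1 input library. All 5 were made from lineage-negative, Sca1-positive, Kit-positive, CD45.2-positive cells of mouse bone marrow, which the labels call HSC/MPP, and all carry the genotype Mll3/4 deleted, which removes a pair of histone methyltransferases that act mainly at enhancers. No untreated or undeleted control was used here, and the labels name neither the deleter line nor separate animals. The 4 libraries were pooled into 1 list by the authors, so no value below has a replicate error and read depth is unknown. Of 12 markers of stem and multipotent cells, 6 had a peak within 1 kb of a gene end, beside 36.2% of all protein-coding genes, Kit and Flt3 among them and Ly6a, which encodes Sca1, not. Of 6 B-cell markers all 6 did. None of the 17 T-cell, myeloid, erythroid and stroma markers did. How far the cells behind these marker peaks take part in the domains below was not tested.

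H3K27ac, the acetylation of lysine 27 on histone H3, is laid down by the acetyltransferases p300 and CBP at active promoters and enhancers, and long runs of it are often called super-enhancers or broad domains. Zmiz1 encodes a transcriptional coactivator with a PIAS-type zinc finger that works with Notch1 in developing T cells. St3gal6 encodes a sialyltransferase of the Golgi that adds sialic acid in an alpha 2-3 link and helps to build selectin ligands on white blood cells. Dcbld2 encodes a receptor-like membrane protein with CUB and discoidin domains, built much like the neuropilins.

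The start windows of the 3 genes are printed first, since the peaks sat differently on each. They come from the RefSeq promoter table of GRCm38.p6 and run 5′ to 3′ on the strand of the gene, from 250 bases before the start site through the first 50 bases of the transcript. Capitals mark every match, on either strand, to a few short motifs. These are TGTGGT, bound by Runx factors, the E boxes CAGCTG as well as CAGGTG, the motif AGATAA of the Gata zinc fingers, the motif GGAAGT of Ets factors, the GC box with the letters CCGCCC, and the CCAAT box.
Zmiz1, plus strand, chr14:25458935-25459234: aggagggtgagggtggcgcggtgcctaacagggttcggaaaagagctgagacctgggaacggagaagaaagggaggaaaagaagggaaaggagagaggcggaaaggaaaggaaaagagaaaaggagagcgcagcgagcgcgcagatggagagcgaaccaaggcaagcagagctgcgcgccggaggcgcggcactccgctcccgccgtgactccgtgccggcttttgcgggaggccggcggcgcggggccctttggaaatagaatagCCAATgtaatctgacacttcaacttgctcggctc
St3gal6 outer start, minus strand, chr16:58524204-58524503: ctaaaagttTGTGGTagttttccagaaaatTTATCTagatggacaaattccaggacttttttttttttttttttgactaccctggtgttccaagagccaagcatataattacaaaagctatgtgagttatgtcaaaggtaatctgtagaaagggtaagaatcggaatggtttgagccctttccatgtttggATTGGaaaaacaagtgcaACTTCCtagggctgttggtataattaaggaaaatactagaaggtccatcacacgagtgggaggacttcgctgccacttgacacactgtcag
St3gal6 inner start, minus strand, chr16:58523377-58523676: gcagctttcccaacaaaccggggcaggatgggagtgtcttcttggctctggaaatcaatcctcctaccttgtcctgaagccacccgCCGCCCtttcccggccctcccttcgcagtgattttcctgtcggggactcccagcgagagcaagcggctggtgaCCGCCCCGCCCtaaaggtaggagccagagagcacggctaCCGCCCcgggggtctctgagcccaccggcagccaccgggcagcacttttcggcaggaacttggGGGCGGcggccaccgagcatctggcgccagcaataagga
Dcbld2, plus strand, chr16:58408285-58408584: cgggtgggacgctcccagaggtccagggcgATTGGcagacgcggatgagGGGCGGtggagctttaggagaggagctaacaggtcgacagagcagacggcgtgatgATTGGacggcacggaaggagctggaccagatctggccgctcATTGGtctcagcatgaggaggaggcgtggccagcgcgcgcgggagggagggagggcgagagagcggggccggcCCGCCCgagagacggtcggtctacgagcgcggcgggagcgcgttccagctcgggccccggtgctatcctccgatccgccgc

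The 4 windows differ in base composition. The Zmiz1 window holds 26 CpG, the inner St3gal6 window 20 and the Dcbld2 window 35, against a median of 13 (interquartile range 4 to 24) over the 21263 start windows of protein-coding genes. The outer St3gal6 window holds 3 CpG and 38.7% G and C, and it was overlapped by a peak, as were 4.54% of all windows with under 5 CpG. That peak, 24311 bp wide, also covered the inner window, and its summit lay 0.91 kb from the inner start. The same outer window is the only one of the 4 with the Runx, Gata and Ets letters, each once. These letters occur in 14.97%, 9.65% and 24.8% of all start windows. The inner St3gal6 window has 5 matches to the GC box, 2 of which share a base, and Dcbld2 has 2 such matches and 3 to the CCAAT box. The outer St3gal6 window also has 1 match to the CCAAT box. The GC box letters are found in 46.2% and the CCAAT letters in 38.2% of all windows. The only match in the Zmiz1 window is 1 CCAAT box. The E box letters were in none of the 4 windows. A match describes the letters and no binding was measured.

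Zmiz1 was covered by a long chain of peaks. The gene runs from 25457875 to 25666743 on chromosome 14, which is 208.9 kb on the plus strand, and 56 peak summits fell inside it. Of all protein-coding genes, 38.0% had at least 1 summit in the body and 2.83% had at least 5. Among those of at least 50 kb, the shares were 56.5% and 11.2%. The peaks covered 52.8% of the Zmiz1 body, or 110.2 kb. Only 2 protein-coding genes had more summits in the body, and 2 of the 4945 protein-coding genes of at least 50 kb had a larger share covered. Merging peaks within 1 kb of each other left 15 regions in place of the 56 peaks.

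The signal value of a peak is the seventh column of the deposited list, read as the enrichment of the H3K27ac pileup over the background. Each peak has a single such value. Signal value times length applies it to the whole width of the peak and is not a measured sum of signal. In Zmiz1 the signal value ran from 1.88 to 6.91 with a median of 2.87 (interquartile range 2.53 to 3.44), against a median of 3.27 over the whole list. Of the 56 peaks, 45 had a q-value of at most 0.05, 11 had a −log10 q of at least 5 and 9 had a signal value of at least 4. Over the list, 78.8%, 36.1% and 33.9% of peaks met these limits. By signal value times length, summed over the 56 peaks, the 11 held 63.6% and the 9 held 55.9%. Peaks were wider than usual, with a median of 1195 bp (range 256 to 9779 bp) against 854 bp over the list.

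The peaks of Zmiz1 stood close together. The median gap between the end of a peak and the start of the next was 454 bp, and 41 of the 55 gaps were under 1 kb. Over the 620 genes with at least 5 summits in the body, the median of this gap was 5007 bp (interquartile range 1682 to 12019 bp). The median gap in Zmiz1 depended on the weaker peaks: it was 3179.5 bp among peaks with a −log10 q of at least 5 and 4568 bp among those with a signal value of at least 4. After merging within 1 kb it was 1937 bp. Wide peaks carried much of the domain. The 4 Zmiz1 peaks over 5 kb held 40.1% of the signal value times length summed over all 56. They lay from 25467420 to 25476447 (signal value 5.32), from 25483001 to 25489826 (3.79), from 25510510 to 25518839 (5.32) and from 25519012 to 25528790 (5.20). The last pair was separated by 172 bp.

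The start site of Zmiz1 fell between peaks. A peak from 25458138 to 25458875 with a signal value of 2.25 ended 60 bp before the printed window, and a peak from 25459425 to 25461574 with a signal value of 5.42 began 191 bp after it. The printed Zmiz1 window thus lay in a gap of 549 bp, and the summit of the second peak was 0.70 kb into the gene. Of the 21263 start windows, 365 (1.72%) lay in such a gap with a peak within 1 kb of the start site on both sides, and 5458 were overlapped by a peak, which is 25.7%. At the low end of the gene as annotated, which lies before the start site, 2 peaks reached the 1 kb window, with signal values of 3.52 and 2.25. At a q-value of at most 0.05, 1 of them was left. The high end had none. Here 36.2% of all protein-coding genes had a peak within 1 kb of an end.

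Along the body, coverage was highest near the start. With the body cut into 5 equal bins, peaks covered 79.8% of bin 1 and 74.4% of bin 2, then 44.7%, 52.9% and 12.03% of bins 3, 4 and 5. The summits numbered 15, 11, 14, 12 and 4. Of all 56, 66.1% lay nearer the start than the far end, while the median over 503 genes with at least 5 summits and a known strand was 60%. The last peak ended at 25631310, and the final 35.4 kb of the gene held none. Median signal values of the bins stayed between 2.56 and 3.10.

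The strongest peak inside Zmiz1 lay over the start of another transcript. It ran from 25592355 to 25596340 with a signal value of 6.91 and a −log10 q of 20.3, 135.4 kb from the Zmiz1 start. It covered the start window of Gm32497, a long non-coding RNA on the opposite strand. Gm45915, a protein-coding gene model that lies wholly inside Zmiz1, had 2 peaks at its ends with a highest signal value of 3.19. The microRNA gene Mir3075, from 25534439 to 25534523, lay inside a peak with a signal value of 3.66.

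Outside Zmiz1, 6 summits lay within 100 kb, against a median of 2 over all protein-coding genes, of which 73.2% had at least 1. Upstream, 4 summits lay within 100 kb, of which the farthest was the strongest peak of the locus. It ran from 25377873 to 25380025, its summit at -80.6 kb from the Zmiz1 start, with a signal value of 10.4 and a −log10 q of 37.5. Start windows of the long non-coding RNA genes Zmiz1os1, on the minus strand, and Gm41113 lay in it. Between this peak and the low end of Zmiz1 there were 3 peaks, with signal values of 2.31, 2.51 and 3.52, and 43034 bp without any between the second and the third. Downstream, the next peak came 62976 bp after the last Zmiz1 peak, at Ppif, which encodes the mitochondrial cyclophilin D (signal value 2.71). The other one within 100 kb lay in Zcchc24 and had a signal value of 2.77.

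**Figure D1:**
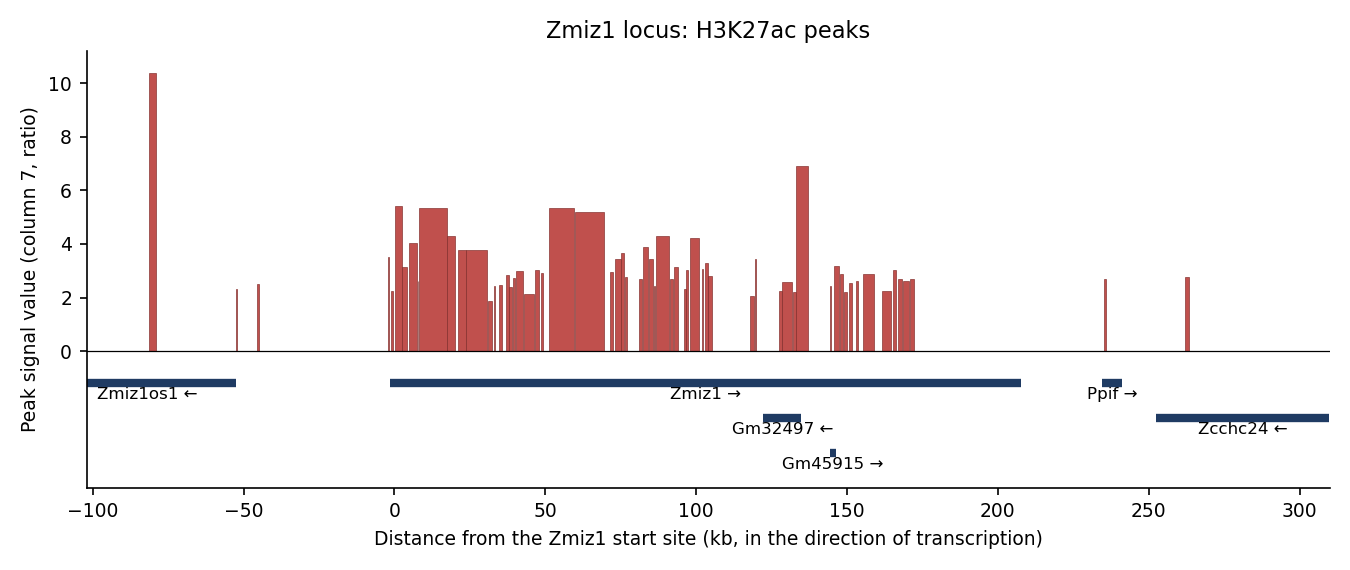
Peaks of the Zmiz1 locus, drawn as bars as wide as each peak (x axis, distance from the Zmiz1 start site in kb) and as high as its single signal value (y axis, ratio), with genes and their direction below the axis. The chain of peaks fills most of the first 105 kb of Zmiz1, thins out afterwards and stops 35.4 kb before the end of the gene, while the highest bar stands at -80.6 kb.

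St3gal6 carried fewer peaks than Zmiz1, of which a single one was very large. The gene runs from 58469742 to 58524260 on chromosome 16, 54.5 kb on the minus strand, and held 10 summits, against a median of 1 over the 4945 long genes and of 7 over the 620 genes with at least 5. Peaks covered 69.8% of it, or 38.1 kb, the second highest share among the 4945 long genes after Foxo1. The largest peak ran from 58500538 to 58524848, a width of 24311 bp, with a signal value of 14.5 and a −log10 q of 68.2. It was the second widest of the 22948 peaks and stood at place 57 by signal value. Both printed St3gal6 windows lay inside it, and its summit was 0.91 kb into the gene from the inner start.

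St3gal6 also held a pair of strong peaks of almost equal height, which were not neighbours. One ran from 58496046 to 58500184 with a signal value of 8.97, only 353 bp from the 24311 bp peak. The other ran from 58479719 to 58483917 with a signal value of 8.999 and covered an inner start window of Gm33475, a long non-coding RNA on the opposite strand. Its summit lay 41.4 kb from the inner St3gal6 start, against 24.2 kb for the first, with weaker peaks between them. Both had the same −log10 q of 29.3. The remaining 7 peaks were weak, with signal values from 2.01 to 3.06. The median over all 10 was 2.97, close to the Zmiz1 median of 2.87, and the highest values were 14.5 and 6.91.

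Coverage of St3gal6 was highest near the start, while its summits lay mostly toward the far end. Bins 1 and 2 were covered to 100% by the 24311 bp peak, bins 3 and 4 to 63.6% and 63.5%, and bin 5 to 22.1%. The summits numbered 1, 0, 2, 4 and 3, so that 20% lay nearer the start than the far end, against 66.1% in Zmiz1. The last 6.21 kb before the far end were free of peaks. Outside the gene, 2 peaks lay upstream within 100 kb. They ran from 58533928 to 58535050 (signal value 3.73) and from 58555473 to 58555929 (2.54). The 3 peaks downstream were those of Dcbld2. Ftdc1, a protein-coding gene 89.4 kb upstream of St3gal6, had no peak in its body or at its ends.

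Dcbld2 was at the edge of this domain and had little of it. It runs from 58408535 to 58469745 on the plus strand, so that it meets St3gal6 tail to tail and shares 4 bases with it. In its 61.2 kb fell 3 summits, against a median of 1 over the long genes, with signal values of 3.43, 2.24 and 2.501 and widths of 757, 2438 and 322 bp. All 3 lay in the last of the 5 bins, which they covered to 28.7%, and bins 1 to 4 had no peak. In all, 5.75% of the Dcbld2 body was covered, against a median of 0.51% over the 4945 long genes. None of the 3 peaks had a −log10 q of at least 5. These values go against the label of a large domain for Dcbld2: its peaks held 1.94% of the summed signal value times length of the shared cluster, and those of St3gal6 97.1%.

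No peak lay at either end of Dcbld2 by the 1 kb rule. From its start site the next peak was 54.4 kb away in the direction of the gene and 551.0 kb away upstream. The window printed above is among the richer ones in CpG, with 90.9% of all start windows holding fewer. Of the 7641 windows with at least 20 CpG, 42.0% were overlapped by a peak and 62.5% had a peak within 1 kb of the start site. The lncRNA gene 4930461C15Rik, which starts next to Dcbld2 on the other strand, had no peak at its ends either. A missing peak here means that no call was made, not that the mark was lacking. Within 100 kb outside the gene there were 12 summits, all on the side of St3gal6, against the median of 2 over all protein-coding genes.

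**Figure D2:**
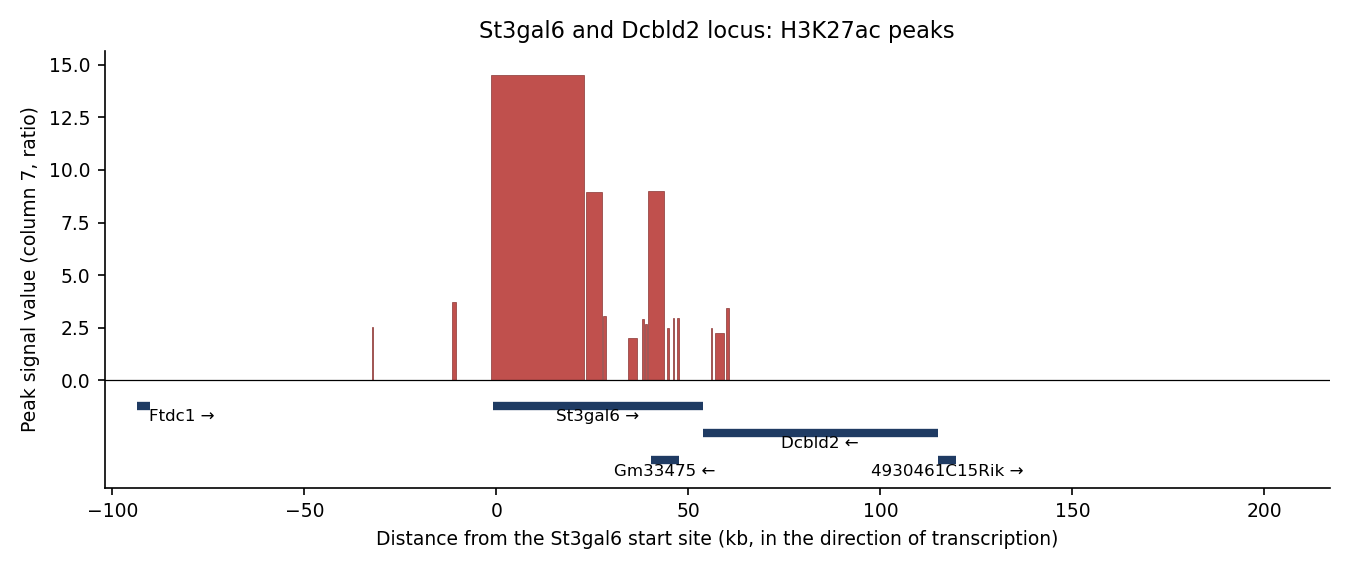
Peaks of the St3gal6 and Dcbld2 locus, with bar width as peak width (x axis, distance from the inner St3gal6 start site in kb) and bar height as signal value (y axis, ratio). A single bar of 24311 bp spans the St3gal6 start, and Dcbld2, drawn below St3gal6, has 3 low bars near its far end and none at its start.

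**Figure D3:**
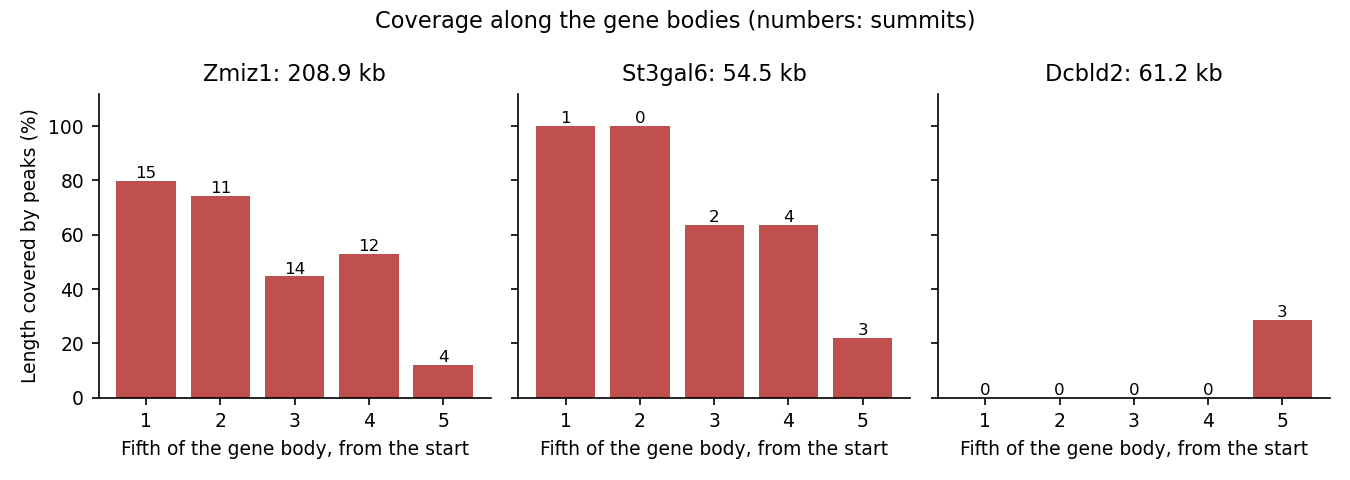
Share of each gene body covered by peaks (y axis, %) in 5 equal bins from the start to the far end (x axis), with the number of summits in each bin above the bar. Zmiz1 goes from 79.8% to 12.03% and St3gal6 from 100% to 22.1%, whereas Dcbld2 has cover in bin 5 alone.

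The clusters that chose the genes join distal peaks, whose summit lies over 1 kb from any protein-coding gene end, when they are within 12 kb of each other. They are ranked by signal value times length in kb, summed over peaks. The cluster over St3gal6 and Dcbld2 stood at place 3 of 8972, with a sum of 455.6 from 14 peaks. That over Zmiz1 was at place 5, with 327.5 from 37 peaks. Place 4, on chromosome 15 and over no protein-coding gene, had 360.6, and just outside the first 5 stood a cluster over Nedd9 with 291.5. A gap of 12573 bp ended the Zmiz1 cluster inside the gene. The rest of the gene held a second cluster, from 25576982 to 25631310, with 16 peaks, a sum of 86.96 and place 78.

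Both domains reached the first 5 in different ways. In the St3gal6 cluster, 1 peak made up 77.4% of the sum. The largest peak held 80.2% in the cluster over the forkhead factor gene Foxo1 and 73.2% in the one on chromosome 15. In the cluster over the Ets factor gene Erg it held 34.3%. In Zmiz1 it held 15.5%, and 4 peaks were needed to reach 50% of the sum, against 1 or 2 in the other 4 clusters. The sum divided by the covered length is the mean signal value of the peaks, weighted by their width. It was 4.07 for Zmiz1 and 10.5 for St3gal6, beside 8.23 for Foxo1, 8.65 for Erg and 11.3 on chromosome 15. No cluster of the list had more peaks or a greater covered length than the Zmiz1 cluster, with 37 and 80.5 kb, while that of St3gal6 was at places 32 and 9 by these measures.

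The places turned on different choices. The 24311 bp peak at St3gal6 counted as distal because its summit lay beyond 1 kb of the gene end, although it covers that end. When peaks that reach the 1 kb around an end or a RefSeq start of a protein-coding gene were left out, the St3gal6 cluster went from place 3 to place 30 and the Zmiz1 cluster from 5 to 3. Lists with a −log10 q of at least 5 or a signal value of at least 4 put the Zmiz1 cluster at place 36 and 43. The St3gal6 cluster stayed at place 3 in both. With joining within 5 kb, the peaks of Dcbld2 formed a cluster of their own at place 2486.

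**Figure D4:**
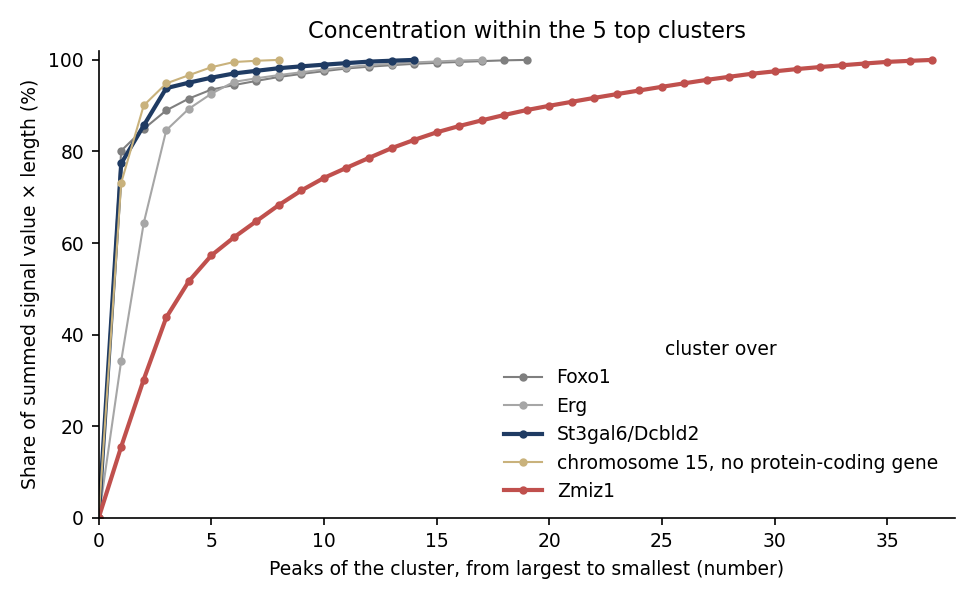
Cumulative share of the summed signal value times length (y axis, %) against the number of peaks taken from the largest down (x axis) for each of the 5 top clusters. The St3gal6/Dcbld2 curve starts at 77.4% with its first peak and the Zmiz1 curve at 15.5%.

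Genes with the most similar layout were found from 5 values of the body: number of peaks, covered share, median and highest signal value, and median distance between summits. Distances are Euclidean over standardised log2 values among the 620 genes with at least 5 summits. They rest on the single pooled list and say how close the layouts are. Nearest to Zmiz1 was Arid1b, which encodes a subunit of the BAF chromatin remodeller, at 0.92. It had 69 summits, the highest number in the list, over 28.5% of 353.4 kb. The B-cell repressor gene Bach2 followed at 1.36, with 52 summits over 17.8%, and Ntn1, which encodes netrin-1, at 1.52 with 29 over 29.5%. The median distance of the other genes from Zmiz1 was 4.96.

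Nearest to St3gal6 was Rhoh, at a distance of 0.53. It had 9 summits, 61.1% of the body covered and a highest signal value of 15.1. Foxo1 came next at 0.71, with 13 summits over 85.7% and a highest value of 12.4. Cd47, the gene of the membrane protein that tells phagocytes not to engulf a cell, was at 1.302 with 9 summits over 27.3%. The median distance from St3gal6 was 4.07. Dcbld2 had too few summits to be placed.

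**Figure D5:**
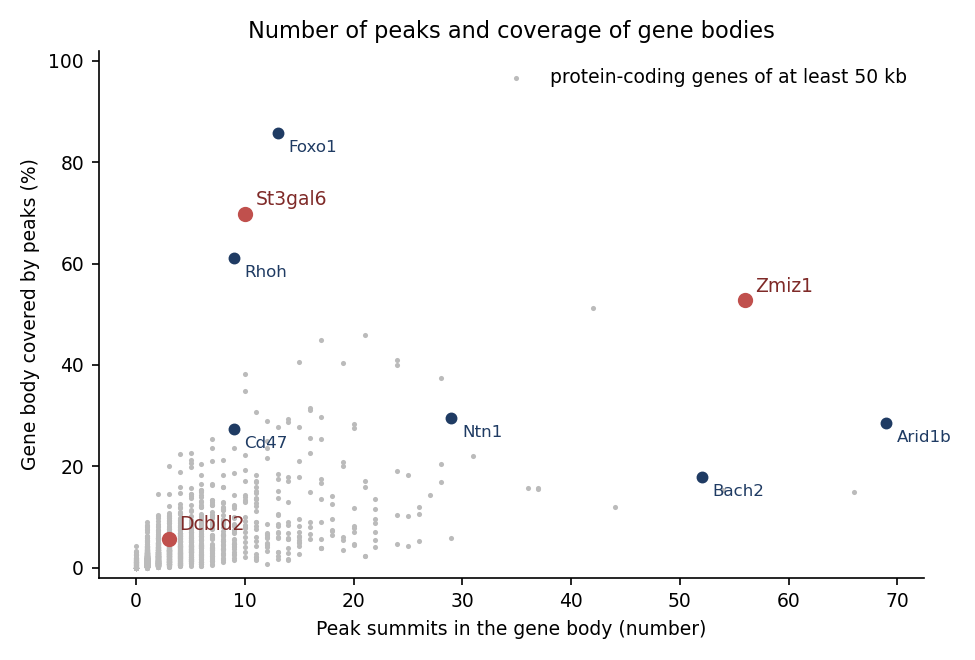
Summits in the gene body (x axis, number) against the share of the body covered by peaks (y axis, %), with grey points for the 4945 protein-coding genes of at least 50 kb, red for the 3 genes described and blue for the genes most similar in layout, of which Rhoh is shorter than 50 kb. Zmiz1 is far out in number with 56 summits, St3gal6 in coverage with 69.8%, and Dcbld2 has 3 summits and 5.75% covered.

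Of 15 genes of the PIAS family and the SUMO machinery, which joins the small protein SUMO to its targets and removes it, 13 had a peak within 1 kb of an end, beside 36.2% of all protein-coding genes. The median of their strongest signal value at an end was 5.02, against 4.71 over all genes with such a peak. Highest were Senp3, a SUMO protease, with 10.7, Sumo3 with 9.12 and Senp2, another such protease, with 8.33. The paralogue Zmiz2 had 2 summits over 8.60% of its body and a signal value of 4.77 at an end. Pias3, a SUMO ligase, and the protease gene Senp7 had no peak at an end. None of the 15 had more than 5 summits in the body, a number reached by Pias1.

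Among 17 sialyltransferases and makers of selectin ligands, 9 had a peak at an end, beside 36.2% of all protein-coding genes. The highest was at Selplg, the gene of PSGL-1, the main carrier of selectin ligands on white blood cells, with 12.8. Cmas, which makes the activated sialic acid that St3gal6 uses, had 8.54. C1galt1, which extends O-glycans, had 7.19. Of the other St3gal genes, St3gal1 had 16 summits over 31.6% of its 74.1 kb and St3gal4 a single peak at an end with 3.00. St3gal2, St3gal3 and St3gal5 had none at an end. St6gal1, which adds sialic acid in an alpha 2-6 link, had 18 summits over 12.6% of its body. The fucosyltransferase genes Fut4 and Fut7 had no peak at an end or in the body.

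In the neuropilin-like list, 3 of the 10 genes had an end with a peak, a share near the 36.2% of all protein-coding genes. These were Dcbld1, the paralogue of Dcbld2, with a signal value of 3.06, the plexin gene Plxna2 with 3.58 and Mfge8, which encodes a secreted discoidin protein, with 3.49. The neuropilin genes Nrp1 and Nrp2 had none at an end, and 1 and 3 summits in the body. No gene of this list had over 3 summits in the body, the number found in Dcbld2.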

How the data were processed

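H3K27ac ChIPmentation, a chromatin immunoprecipitation in which the transposase Tn5 adds the adapters, was deposited as 1 narrowPeak list for 4 libraries over 1 input. BWA and MACS2 and the build mm10 are named in the submitters' processing notes, with no version, role or filter. The deposited columns are a score, a signal value read as the enrichment ratio over background, −log10 p and −log10 q per peak, and the summit. All these values are the authors' and served only to describe or filter peaks within the list. The score was not used. Gene positions and start windows are RefSeq, GRCm38.p6, which shares its chromosome coordinates with mm10. Coordinates are 1-based. The gene table has no exons, so exon, intron or UTR is not given. The strand of the windows was checked on 1 pair that overlaps on opposite strands, Dcbld2 and 4930461C15Rik. A summit between the gene ends is in the body, and a peak is at a gene end when it reaches within 1 kb of it. All 77 genes of the lists were matched. Further members of a list are not reported here.

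The genes and lists were chosen with earlier results of these data known, and the genes named are the 3 genes, their neighbours within 100 kb, the genes of the 5 top clusters, the lists and the 3 genes most similar in layout. Nedd9 was named after its value was seen. No test was made, since no value of a single library was used. Counting was tested on simulated peaks. Python 3.11.15, numpy 2.4.6, pandas 2.3.3 and matplotlib 3.10.9 were used. Alternatives were stricter lists, merged peaks, other windows, joins and rankings.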

Additional observations from a re-analysis of the deposited data

How the results depend on the processing

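Of 141 recomputed values, 72 stayed within 1.5 times the reported one and 69 moved further, 39 of them in the stricter lists. The choice of distal by overlap was made after the data were seen. With −log10 q of at least 5, the summits in the body were 11 in Zmiz1, 3 in St3gal6 and 0 in Dcbld2, and 24.0% of protein-coding genes kept one at an end. With a signal value of at least 4 they were 9, 3 and 0, with 23.2% of genes. Merging within 1 kb left 15, 3 and 1. The Zmiz1 cluster stood at place 36 and 43 in these 2 stricter lists, at place 1 by number of peaks and 1 by covered length, and at 3 with distal by overlap. The St3gal6 cluster, which Dcbld2 shares, stood at 32 by number, 9 by covered length and 30 with distal by overlap. Joined within 5 kb, the Dcbld2 peaks were at place 2486. Under the 2.5 kb window, Dcbld2 had 1 peak at an end in place of 0. Covered share of the body ranged from 58.8% to 76.3% in St3gal6 and from 21.97% to 60.3% in Zmiz1. Since read depth is unknown, the peaks have no known precision. The pooled list allows no library to be left out. No paired analysis was possible because the columns carry no replicate.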
